A study of Rattus norvegicus with 6 samples.

Results

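The genes described here are 8 pigment genes of vestibular melanocytes: *Mitf*, *Tyr*, *Tyrp1*, *Dct*, *Mlana*, *Pmel*, *Slc45a2* and *Oca2*. They were listed by gene symbol, with earlier results of these data known. Of the 8, 7 had a row among the 32883 genes of the count table, and all 7 were among the 14352 genes that passed the filter on low counts and were tested. The expression of *Dct* was not analysed here. Expression was measured by RNA-seq in the vestibular sensory epithelium of adult male Long-Evans rats, a pigmented strain. Control rats (n = 3) drank plain water. For 4 weeks, IDPN-4wk rats (n = 3) were given IDPN (3,3'-iminodipropionitrile), which damages inner ear hair cells, at 20 mM in what they drank. The utricles and cristae of a rat were pooled, so a library is an animal. In the sample titles, the first part of the animal code is the same for all 3 IDPN-4wk rats, another code is shared by 2 controls and the remaining control has its own. What the code marks is not given, and it cannot be told apart from the treatment.

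Melanocytes are neural crest cells that make melanin inside melanosomes, organelles related to lysosomes. In the vestibular organs they lie in the connective tissue under the dark cells, the epithelial cells beside the sensory patches that secrete potassium into the endolymph, and not in the sensory epithelium itself. MITF is the transcription factor that drives pigment genes in these cells, and it binds a DNA motif called the M-box, whose core reads TCATGTG. TYR, TYRP1 and DCT are the related enzymes of melanin synthesis. PMEL builds the fibrils on which melanin is laid down, MLANA is a melanosome membrane protein that binds PMEL, and SLC45A2 and OCA2 are membrane transport proteins that act on melanosome pH.

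Stretches of promoter are shown first for the pigment genes whose window holds the letters of the M-box core. In the 250 bases before the start of each gene in RefSeq (build GRCr8), TCATGTG or its reverse complement CACATGA was found in 4 of the 7 pigment genes with a window, and in 3.07% of all 33469 windows. The 4 genes were *Tyr*, *Tyrp1*, *Dct* and *Mlana*. The shorter CATGTG, which lies within that motif, was found in the same 4 genes and in 12.1% of all windows, searched on both strands. CACGTG, which reads the same on both strands, was found in 0 of the 7 and in 5.59% of all windows. *Slc45a2* had no window in the table. Each stretch below is written 5′ to 3′ along the strand of its gene, with the motif in capitals.
Tyr (chr1:150622952-150622998, minus strand): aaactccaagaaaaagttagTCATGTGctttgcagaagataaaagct
Tyrp1 (chr5:100327037-100327083, plus strand): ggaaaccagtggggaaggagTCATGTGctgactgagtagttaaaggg
Dct (chr15:101508141-101508187, minus strand): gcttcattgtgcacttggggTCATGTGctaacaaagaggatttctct
Mlana (chr1:236882851-236882897, plus strand): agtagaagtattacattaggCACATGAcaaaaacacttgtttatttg
The motif began 121 bases before the start of *Tyr*, 68 before that of *Tyrp1*, 138 before that of *Dct* and, reversed, 204 before that of *Mlana*. A match of these letters is a description of the window and was not tested as a binding site. The motif was chosen because MITF, which drives pigment genes, binds it, so the count among them is no test of enrichment.

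Libraries held from 13358678 to 18561991 counts. Levels are given as CPM, counts scaled to a common library size after TMM normalisation, and are not corrected for gene length, so they compare libraries and not genes. A gene was called when its fold change exceeded 1.5 and edgeR's quasi-likelihood test gave a Padj, the p adjusted by Benjamini-Hochberg, below 0.05. Of all tested genes, 950 were downregulated and 444 upregulated. In this bulk tissue, fewer melanocytes and less RNA per melanocyte cannot be told apart, nor can RNA of the same genes from other cells.

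The comparison of IDPN-4wk with control rats asked whether pigment transcripts change under subchronic ototoxic exposure. None of the 7 pigment genes passed both thresholds, that is 0 of 7, where 9.71% of all tested genes did, 6.62% as lower and 3.09% as higher. By Padj alone the count was also 0, against 11.5% of all tested genes lower and 7.89% higher. At an unadjusted p under 0.05 the edgeR test gave 4 genes, *Mitf*, *Tyr*, *Pmel* and *Oca2*, all lower in IDPN-4wk, and 3 of 6 without *Oca2*, which passed the filter on low counts through the controls, where 17.4% of all tested genes were lower at that level and 33.1% passed it in either direction. DESeq2 called 0 as well. Log2-Fold changes were below 0 in 6 genes and above 0 in *Tyrp1*, with a median of -0.26 over the 7 pigment genes and of 0.02 over all tested genes. Without *Oca2* the median was -0.24. The groups did not overlap in *Mitf*, *Tyr* and *Pmel*, each lower in IDPN-4wk, while 19.3% of all tested genes were lower without overlap, 18.5% higher and 37.8% either. Scaled by library size and not by TMM, *Tyr* and *Pmel* overlapped between the groups.

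**Figure D1:**
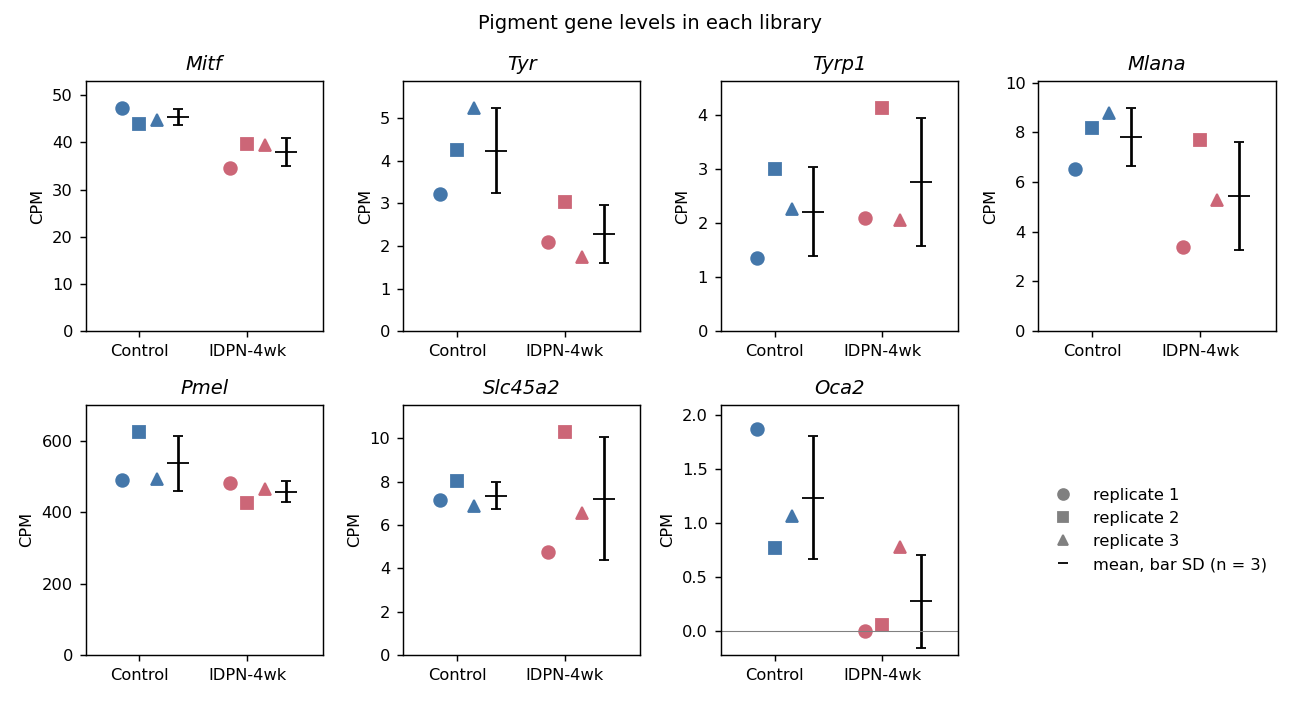
Level of each pigment gene in CPM (vertical axis, from 0, a scale for each gene) in the 3 Control and 3 IDPN-4wk libraries, with the mean and SD beside the points. Points of *Mitf*, *Tyr* and *Pmel* do not overlap between the groups, and IDPN-4wk replicate 2 is the highest of its group in 5 of the 7 genes.

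*Mitf* (ENSRNOG00000008658), the transcription factor, was at 47.3, 43.9 and 44.8 CPM in the control libraries and at 34.6, 39.7 and 39.5 CPM in the IDPN-4wk libraries. Every IDPN-4wk library lay under every control library, and replicate 1 was the lowest. The mean went from 45.3 ± 1.75 to 38.0 ± 2.88 CPM (SD, n = 3 each). The log2-Fold change was -0.26, with SE 0.09 and edgeR Padj 0.0749. The 95% interval of the difference, from -0.46 to -0.05, did not reach a fold change of 1.5, which is 0.58 on the log2 scale, in either direction. With library size alone the log2-Fold change was -0.15 (edgeR Padj 0.264). *Mitf* has several promoters used in different tissues, and counts per gene do not separate the melanocyte form from the others.

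*Tyr* (ENSRNOG00000016421) encodes tyrosinase, the enzyme of the first step of melanin synthesis. It was at 3.23, 4.26 and 5.23 CPM in control libraries, from 50 to 74 counts, and at 2.08, 3.04 and 1.74 CPM in IDPN-4wk libraries, from 27 to 59 counts. The highest IDPN-4wk library came close to the lowest control library without passing it, but passed it with library size alone. The mean in IDPN-4wk was 53.9% of that in control, and the log2-Fold change was -0.87 (SE 0.31, edgeR Padj 0.0729). The 95% interval ran from -1.56 to -0.19, so a fall over 1.5-fold and a far smaller one were both within it. Across the 6 fits that left out a library, the log2-Fold change was from -1.15 to -0.70 with edgeR Padj from 0.0555 to 0.233.

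*Tyrp1* (ENSRNOG00000029318), the gene of tyrosinase-related protein 1, was the only pigment gene with a higher mean in IDPN-4wk. Its levels were 1.36, 3.00 and 2.26 CPM in control and 2.08, 4.12 and 2.06 CPM in IDPN-4wk libraries. The groups overlapped, and replicate 2 of IDPN-4wk stood above the other 5 libraries. The log2-Fold change was 0.34 (SE 0.39, edgeR Padj 0.593) with a 95% interval from -0.53 to 1.21. Without IDPN-4wk replicate 2 it was -0.09, so the sign rested on that animal.

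*Mlana* (ENSRNOG00000036608) was at 6.52, 8.17 and 8.77 CPM in control and at 3.38, 7.68 and 5.28 CPM in IDPN-4wk libraries. Replicates 1 and 3 of IDPN-4wk lay under all controls, and replicate 2 lay among them. The log2-Fold change was -0.51 (SE 0.28, edgeR Padj 0.238), with a 95% interval from -1.12 to 0.11. Leaving out IDPN-4wk replicate 1 moved it to the value nearest 0, -0.27, and leaving out replicate 2 to the lowest, -0.85.

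*Slc45a2* (ENSRNOG00000018759) had nearly the same mean in the groups, 7.35 ± 0.608 CPM for control and 7.20 ± 2.84 CPM for IDPN-4wk rats (mean ± SD, n = 3 each). The single libraries were at 7.16, 8.03 and 6.86 CPM in control and at 4.74, 10.3 and 6.56 CPM in IDPN-4wk. Replicate 1 of IDPN-4wk was thus the lowest of the 6 libraries and replicate 2 the highest. The log2-Fold change was -0.02 (SE 0.26, edgeR Padj 0.972), with a 95% interval from -0.60 to 0.57. Its sign turned under 5 of 15 alternatives, library size alone and upper quartile scaling among them.

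*Oca2* (ENSRNOG00000014465) was the least counted of the pigment genes, with 29, 11 and 15 counts in control libraries and 0, 1 and 12 counts in IDPN-4wk libraries. It passed the filter on low counts through the controls, since only 1 IDPN-4wk library reached the minimum. The count of 0 in replicate 1 allows up to 3 counts, or 0.216 CPM, and replicate 3, at 0.772 CPM, was just above the lowest control, at 0.768 CPM. Summed over libraries, IDPN-4wk held 21.3% of the control level, with an exact 95% interval from 10.7% to 39.4% that covers counting error only. Replicates 1 and 2 together held 2.40% (interval 0.06% to 13.9%), and replicate 3 held 61.7% (interval 30.1% to 117%). The edgeR log2-Fold change was -2.17 (SE 0.86, edgeR Padj 0.102) with a 95% interval from -4.06 to -0.28. Without replicate 3, the only IDPN-4wk library over the minimum, both thresholds were passed (edgeR Padj 0.0053), but a gene that is tested only through its high group had to differ, and nothing is read from that call. A pair of pseudogenes overlaps *Oca2* in RefSeq.

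**Figure D2:**
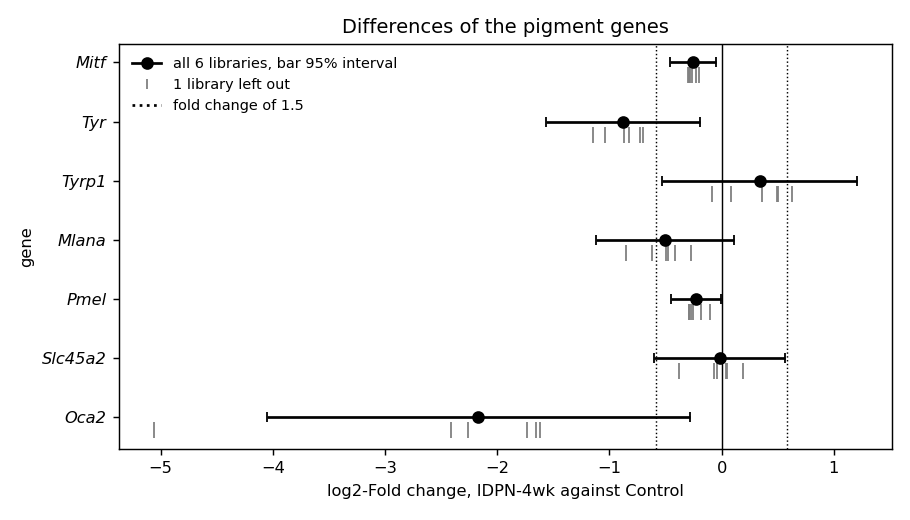
Log2-Fold change of each pigment gene in IDPN-4wk against Control (horizontal axis), as the estimate with its 95% interval from all 6 libraries and as grey ticks for the 6 fits that each left out a library. Intervals of *Mitf* and *Pmel* lie inside the dotted lines at a fold change of 1.5, and the tick of *Oca2* at -5.06 is the fit without IDPN-4wk replicate 3.

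*Pmel* (ENSRNOG00000023085) held most of the pigment gene counts, from 86.8% to 91.2% in the 6 libraries. Which cells this RNA came from was not tested. Its levels were 492, 627 and 494 CPM in control and 483, 426 and 466 CPM in IDPN-4wk libraries. The groups did not overlap, but replicate 1 of IDPN-4wk came close to the lowest control. The log2-Fold change was -0.23 (SE 0.10, edgeR Padj 0.138) with a 95% interval from -0.45 to -0.01, which left out a fold change of 1.5. Without control replicate 2, its highest library, the log2-Fold change was -0.11. With library size alone it was -0.12 (edgeR Padj 0.383), and the groups overlapped. *Pmel* overlaps *Cdk2* and *Dgka* in RefSeq, and reads in the shared parts cannot be told apart because the libraries carry no strand information. These neighbours were named for their place and had far fewer counts, at most 432 for *Cdk2* and 1048 for *Dgka* in a library, against at least 6728 for *Pmel*. *Cdk2* had a higher mean in IDPN-4wk (log2-Fold change 0.45, edgeR Padj 0.0193) that did not reach a fold change of 1.5, opposite in sign to *Pmel*.

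Relative to the mean, the spread between animals was wider in IDPN-4wk than in control for 6 of the 7 pigment genes and narrower for *Pmel*, while the SD itself was larger in IDPN-4wk for 4 of the 7. In *Slc45a2* the coefficient of variation between libraries was 8.27% in control and 39.4% in IDPN-4wk, and in *Mlana* it was 14.9% and 39.6%. In *Pmel* it was 14.4% and 6.44%. Counting error alone would give about 9.64% and 9.03% for *Slc45a2* and 9.37% and 10.4% for *Mlana*. The difference in spread was not tested, and its share over all tested genes is not given. Replicate 2 was the highest IDPN-4wk library in 5 of the 7 pigment genes and in 34.8% of all tested genes, and replicate 1 was the lowest in 4 of the 7 and in 31.9% of all tested genes. *Pmel* ran the other way, with replicate 2 as its lowest IDPN-4wk library and replicate 1 as its highest. The ratio of *Mlana* to *Pmel* counts was 0.00699 in replicate 1, 0.0180 in replicate 2 and 0.0113 in replicate 3, and from 0.0130 to 0.0178 in controls.

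Summed levels show the same split. The 7 genes together were at 559, 695 and 563 CPM in control and at 530, 491 and 522 CPM in IDPN-4wk libraries, so that IDPN-4wk was at 84.9% of control with no overlap. That sum is largely *Pmel*. Without *Pmel* it was at 67.4, 68.2 and 69.0 CPM in control and at 46.9, 64.9 and 55.9 CPM in IDPN-4wk libraries, again with no overlap. Without *Mitf* as well, a sum chosen after the values were seen, the remaining 5 genes were at 20.1, 24.2 and 24.2 CPM in control and at 12.3, 25.2 and 16.4 CPM in IDPN-4wk libraries, which overlapped. In replicates 1 and 3 of IDPN-4wk these 5 genes were at 53.8% and 71.8% of the control mean, and in replicate 2 they were at 110%. Scaled by library size and not by TMM, all 3 sums overlapped between the groups.

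**Figure D3:**
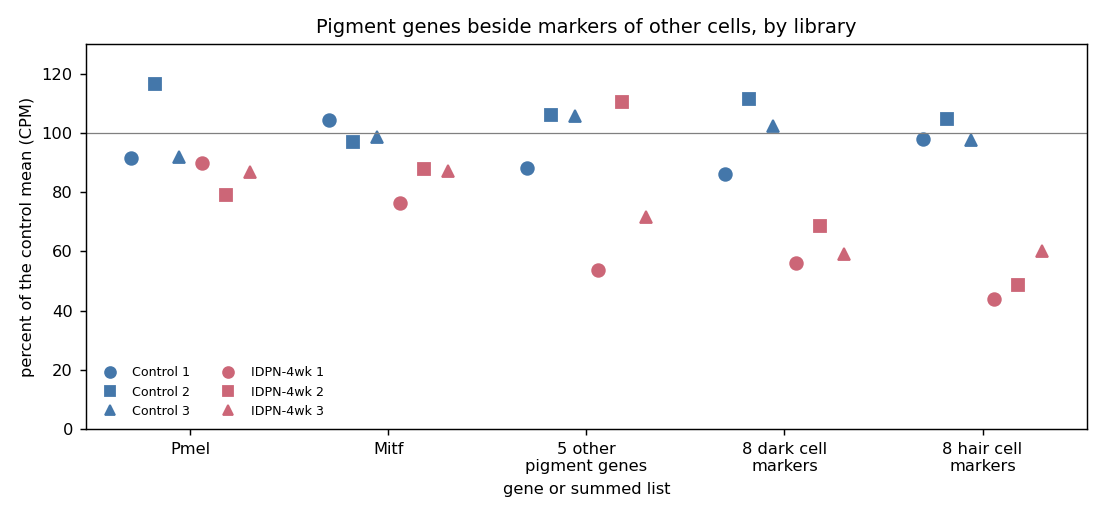
Level in each library as a percent of the control mean (vertical axis) for *Pmel*, *Mitf*, the sum of the 5 other pigment genes and the sums of 8 dark cell and 8 hair cell markers. IDPN-4wk replicate 2 is above the control mean for the 5 pigment genes, at 110%, and at 68.5% for the dark cell markers.

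Within a library, ratios of counts between pigment genes do not depend on scaling. Of the 21 pairs among the 7 genes, 4 had ratios that did not overlap between the groups, which is 19% of pairs, against 37.7% of all pairs of tested genes. Non-overlap was thus no more frequent among pigment genes than among genes at large, and the 4 pairs, named after the values were seen, are given as a description. *Tyrp1* to *Tyr* counts stood at 0.42, 0.705 and 0.432 in control and at 1, 1.36 and 1.19 in IDPN-4wk libraries. The mean ratio was 0.519 ± 0.161 in control and 1.18 ± 0.178 in IDPN-4wk (SD, n = 3 each), and every IDPN-4wk animal was above every control. Both genes hold TCATGTG in the promoter stretches printed above, as *Mlana* does in reverse, and a link to the ratio was not tested. The *Tyrp1* to *Mlana* ratio was from 0.208 to 0.368 in control and from 0.390 to 0.617 in IDPN-4wk. Ratios to *Slc45a2* were lower in IDPN-4wk, from 0.265 to 0.439 for *Tyr* against 0.450 to 0.763 in control, and from 0.712 to 0.804 for *Mlana* against 0.910 to 1.28 in control. With 3 animals against 3, a two-sided exact permutation test cannot go below p = 0.1, and no other test of the ratios was made. A *Tyrp1* count was at most 80 and a *Tyr* count at most 74, which limits the precision of the ratio. RefSeq places a non-coding RNA over *Tyrp1* and a pair of small nuclear RNAs over *Tyr*.

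**Figure D4:**
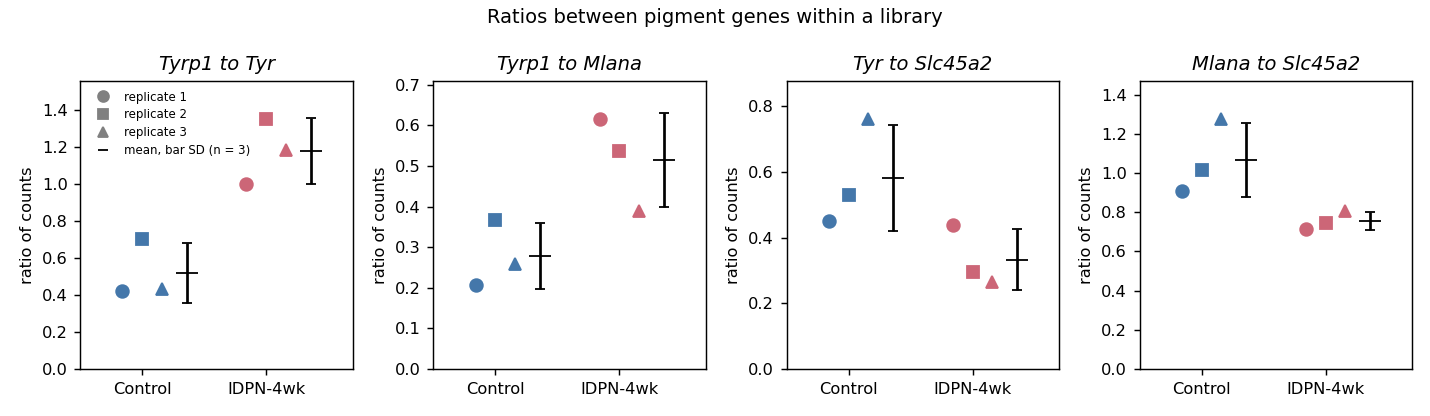
Ratio of counts between pairs of pigment genes (vertical axis, from 0) in the 3 Control and 3 IDPN-4wk libraries, with the mean and SD beside the points. The 4 pairs shown are those that do not overlap between the groups among 21 pairs (19%, against 37.7% of all pairs of tested genes), and *Tyrp1* to *Tyr* goes from a mean of 0.519 to 1.18.

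The wider set of melanosome genes was compared by role. Among 10 tested genes of the melanosome membrane and of MITF targets, 1 fell and 0 rose past both thresholds, where 6.62% of all tested genes fell and 3.09% rose, and the median was -0.02. The gene was *Slc7a11*, a cystine transporter used by many cell types (log2-Fold change -0.79, SE 0.11, edgeR Padj 8.41e-04). *Gpr143*, a melanosome receptor, had 31, 8 and 17 counts in control and 20, 22 and 8 counts in IDPN-4wk libraries (log2-Fold change -0.30, SE 0.53, edgeR Padj 0.737). *Gpnmb*, a relative of *Pmel* that macrophages also express, had 85.9 ± 2.39 CPM in control rats and 118 ± 13.8 CPM in IDPN-4wk rats (mean ± SD, n = 3 each). Its log2-Fold change of 0.46 (edgeR Padj 0.00519) did not reach a fold change of 1.5 and was opposite in sign to that of *Pmel*.

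Melanosome transport genes carry the finished organelle. Of 9 tested, 1 rose (background 3.09%) and 0 fell (6.62%) past both thresholds, and the median was -0.05. *Rab32*, a small GTPase of melanosome protein delivery, rose from 77, 43 and 65 counts in control to 120, 132 and 119 counts in IDPN-4wk libraries (log2-Fold change 0.87, SE 0.24, edgeR Padj 0.0263). The call was lost in 4 of the 6 fits that left out a library, namely without replicate 2 (0.68, edgeR Padj 0.0841) or 3 (0.94, edgeR Padj 0.0566) of control and without replicate 1 (0.78, edgeR Padj 0.0970) or 3 (0.86, edgeR Padj 0.0532) of IDPN-4wk. *Rab27a*, which tethers melanosomes to the actin motor, had 271, 229 and 232 counts in control and 229, 266 and 230 counts in IDPN-4wk libraries (log2-Fold change -0.15, edgeR Padj 0.444). The 18 genes of organelle biogenesis, nearly all subunits of the BLOC, HPS and AP-3 complexes that build lysosome-related organelles in many cells, had 0 calls with edgeR or DESeq2, 0 at an unadjusted p under 0.05 with edgeR and a median log2-Fold change of 0.00. Their log2-Fold changes were from -0.19 to 0.34, and *Hps1* was at 0.16 (edgeR Padj 0.349). *Tfeb* and *Tfe3*, relatives of *Mitf*, were at 0.19 and 0.10 (edgeR Padj 0.553 and 0.668), and *Tfec* was under the filter.

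Ligands, receptors and transcription factors of the melanocyte lineage held 2 downregulated and 0 upregulated genes among 9 tested, where 6.62% and 3.09% of all tested genes were, and the median was -0.10. *Ednrb*, the receptor through which endothelin 3 guides melanocyte precursors and which other cells also carry, had 2986, 2762 and 2987 counts in control and 1393, 1870 and 1994 counts in IDPN-4wk libraries (log2-Fold change -0.88, SE 0.11, edgeR Padj 3.02e-04). Its ligand gene *Edn3* had at most 4 counts in a library. *Lef1*, a WNT pathway factor, fell from 434, 477 and 426 counts in control to 233, 363 and 335 counts in IDPN-4wk libraries (log2-Fold change -0.68, SE 0.13, edgeR Padj 0.00402). It was under the fold change threshold with library size alone (-0.57). The receptor gene *Kit* was at -0.39 (SE 0.13, edgeR Padj 0.0574), and at -0.20 (edgeR Padj 0.163) without control replicate 1, its highest library. Its ligand gene *Kitlg* was at -0.10 (SE 0.09, edgeR Padj 0.460), and *Kitlg* was at 0.00 with library size alone. *Sox10*, a neural crest factor shared by melanocytes and glia, was at 0.19 (SE 0.08, edgeR Padj 0.113). *Pax3* had at most 9 counts in a library, *Asip* had 0 in all 6, and both were under the filter.

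**Figure D5:**
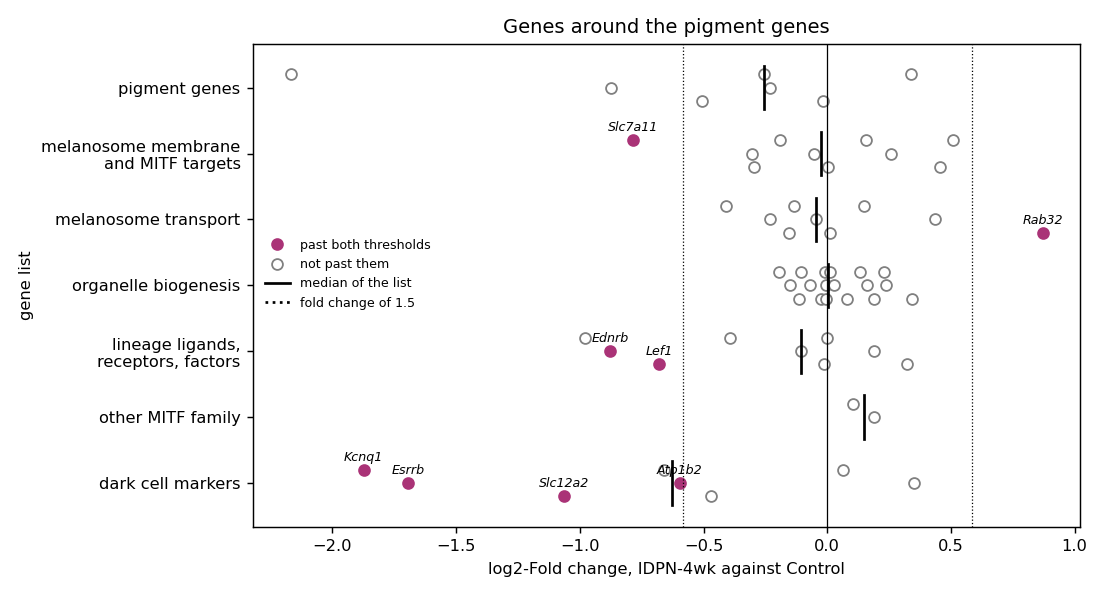
Log2-Fold change in IDPN-4wk against Control (horizontal axis) of every tested gene of 7 lists, with filled points past both thresholds, open points not past them and a black bar at the median of each list. The pigment genes have 0 filled points, the filled points of the other melanocyte lists are *Slc7a11*, *Rab32*, *Ednrb* and *Lef1*, and 4 of the 8 dark cell markers are filled.

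Markers of neighbouring cells were read in the same libraries, where 6.62% of all tested genes were downregulated and 3.09% upregulated. Some lists were lower in sum and others overlapped between the groups. The summed level of 8 dark cell markers was from 1520 to 1967 CPM in control and from 990 to 1210 CPM in IDPN-4wk libraries, which is 61.2% of control, and 4 were downregulated, among them *Kcnq1* (log2-Fold change -1.87), *Slc12a2* (-1.06) and *Atp1b2* (-0.60). *Kcne1*, a subunit of the potassium channel of dark cells, was not past the threshold with edgeR (-0.66, edgeR Padj 0.114) and was called lower by DESeq2, which called 5 of the 8. Within IDPN-4wk the dark cell sum was highest in replicate 2 and lowest in replicate 1, the order of the 5 pigment genes other than *Pmel* and *Mitf*, a sum chosen after the values were seen. The endothelium sum and that of the melanosome membrane and MITF target genes had this order too, and among single dark cell markers replicates 1 and 3 were each the lowest in 4 of 8. No dark cell marker was at 0 in any library. The part of dark cells in the pigment values was not tested.

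For the counts below, 6.62% of all tested genes were downregulated and 3.09% upregulated. Of 7 Schwann cell markers, 6 had log2-Fold changes below 0 and 2 were downregulated, *Ncmap* (-0.68) and *Pmp22* (-0.59), while *Egr2* was at 0.24 (edgeR Padj 0.241). The count of downregulated ones was 1 on leaving out control replicate 1, control replicate 3 or IDPN-4wk replicate 2. It was 5 on leaving out IDPN-4wk replicate 3. Their sum was from 4658 to 5667 CPM in control and from 2741 to 4262 CPM in IDPN-4wk. The 10 macrophage markers held 1 upregulated gene, *C1qb* (0.71), and *Cd68* was at 0.63 (edgeR Padj 0.146). Log2-Fold changes were below 0 in 5 of the 10, the lowest being *Cd163* at -1.06 (edgeR Padj 0.101), which DESeq2 called. The direction of the calls rested on single libraries, with 2 higher on leaving out control replicate 2, 0 higher and 1 lower on leaving out control replicate 3, and 0 higher and 2 lower on leaving out IDPN-4wk replicate 1. Their sums were from 116 to 158 CPM in control and from 96.3 to 194 CPM in IDPN-4wk. The 8 stroma markers held *Lum* (-1.42) and *Col1a1* (0.74) past both thresholds, with sums from 1166 to 1352 CPM in control and from 1221 to 1368 CPM in IDPN-4wk. Among 4 endothelium markers *Flt1* fell (-0.69), a call lost on leaving out control replicate 2, IDPN-4wk replicate 1 or IDPN-4wk replicate 2. *Cdh5* was at 0.01, and the sums were from 275 to 368 CPM and from 227 to 258 CPM. Hair cell markers, with 6 of 8 downregulated, among them *Slc17a8* (-2.56), *Calb2* (-2.16) and *Otof* (-1.19) and with *Myo7a* at -0.64, summed to 50.9% of control. Supporting cell markers summed to 56.7% of control, with 3 of 8 downregulated: *Otog* (-0.97), *Otogl* (-0.89) and *Sparcl1* (-0.59). The count was 2 on leaving out control replicate 2 or IDPN-4wk replicate 2. The sum is largely *Otog*, whose mean level was 6258 CPM in control and in IDPN-4wk 3197 CPM, and *Hes1* was at 0.36 (edgeR Padj 0.0783). *Slc26a4*, of the transitional cells, was at 0.01, and *Foxi1* from that list was at 0 in all 6 libraries. The part of these cells in the pigment values was not tested.

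The genes with a profile most like the pigment genes were found by the root mean square difference over the 6 libraries from the median pigment profile, each gene as log2 CPM around its own mean. They were *Neil1* (0.0558), *Epb41l4a* (0.0736), the clone-named AABR07030901.1 (0.0750), *Sox2* (0.0762) and *Slc3a1* (0.0778). *Sox2*, a supporting cell marker, is also the first of the supporting cell list (log2-Fold change -0.27, edgeR Padj 0.347). With edgeR, 0 of the 5 passed both thresholds. The pigment genes themselves were farther from their own median profile, and *Tyr*, *Tyrp1* and *Oca2* were farther than the median tested gene, at 0.333. *Mitf* was nearest at 0.165, followed by *Pmel* (0.224), *Slc45a2* (0.239), *Mlana* (0.242), *Tyr* (0.379), *Tyrp1* (0.480) and *Oca2* (1.29). A total of 367 other genes, 2.56% of those tested, lay nearer than *Mitf*. The likeness is a description over 6 libraries.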

How the data were processed

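The authors sequenced libraries made by SMART-seq2 from oligo-dT primed RNA without strand information. Per the submitters' processing notes they mapped reads with STAR 2.5.3a and quantified genes with RSEM 1.3.0, on the rat build Rnor6.0 according to the methods. The deposited values are expected counts per gene, whole numbers as deposited, and rounding changed 0 of them. All 6 libraries have the same batch label, and the labels do not say that animals shared a litter. Here, filterByExpr (10 counts at least, total of 15) set the filter on low counts, and the remaining genes were scaled with TMM and tested two-sided with glmQLFit and glmQLFTest of edgeR 4.0.16 in R 4.3.3, without covariates. SEs were taken from the quasi F statistic. The scripts were tested on simulated data. DESeq2 1.42.0, other scalings, filters and prior counts, and fits without each library were alternatives. Replicate numbers follow accession order and only name animals. The 95% intervals of log2-Fold changes come from the edgeR fit and include variation between animals. Exact intervals and floors cover counting error only, since reads had no molecular identifiers. Ratio pairs with 0 counts of both genes in a library counted as overlapping.

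The pigment genes and all lists were chosen with earlier results of these data known. Named were every pigment gene, *Sox10*, *Kit*, *Kitlg* and *Gpnmb*, the first gene with a row and up to 3 called genes of each list, and the 5 genes nearest in profile. Other genes were named after their values were seen. *Lyst*, *Mc1r* and *Pecam1*, in the lists, were not analysed here. Of 2 rows named *Sytl2*, that with more counts was used. 1 gene of the Schwann cell list is not reported here.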

Additional observations from a re-analysis of the deposited data

How the results depend on the processing

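The count of 0 upregulated pigment genes held under all 15 other settings, and that of 0 downregulated ones under all but the fit without IDPN-4wk replicate 3, which called *Oca2* (log2-Fold change -5.06) from counts of 0 and 1 in IDPN-4wk, so the counts without a library ranged from 0 to 1. The sign of *Slc45a2* turned on upper quartile scaling (0.0148), on library size alone (0.093) and in 3 fits that left out a library (range -0.377 to 0.195 over 6), and that of *Tyrp1* in 1 such fit (range -0.0883 to 0.624). *Kitlg* was at 0.00378 with library size alone, which moved the median of all tested genes from 0.02 to 0.13 and called 780 genes lower and 762 higher. TMM factors were from 0.955 to 0.968 in control and from 1.03 to 1.05 in IDPN-4wk libraries, so they split by group. Over all genes, glmTreat called 354 lower and 99 higher, and an adjusted p alone 1646 lower and 1132 higher. Under glmTreat, *Slc7a11*, *Rab32*, *Ednrb* and *Lef1* lost their calls. Causes were not tested. Each library was a separate animal and the labels pair none of them, so no paired analysis was made. At a mean count of at least 50, *Tyrp1* and *Oca2* were not tested. Low depth limits *Oca2*, *Tyrp1* and *Tyr* most.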
